A study of Mus musculus with 2 samples.

Results

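C9 and C17 are the clusters of splenic dendritic cells (DCs) in which most cells held few unique molecular identifiers (UMIs) and a large share of mitochondrial transcripts. Their members were taken from the deposited cluster labels, as every cell numbered 9 or 17 at a Louvain resolution of 0.5. Together they hold 993 of 24343 cells, with 902 in C9 and 91 in C17. C9 holds 374 WT and 528 Batf3-/- cells, and C17 holds 90 WT cells and 1 Batf3-/- cell, so C17 is described in WT alone. The reference clusters are C0 for C9 (3176 WT and 2961 Batf3-/- cells) and C4 for C17 (2202 WT cells).

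The data are CITE-seq, which counts transcripts and antibody-derived tags (adt) in the same cell. CD11c+ MHCII+ cells were sorted from the spleens of female mice aged 8 weeks, after removal of T and B cells. Both groups are on the C57BL/6 background, one wild type (WT) and one without Batf3 (Batf3-/-), and no treatment is given for either. Each genotype is 1 library made from 6 pooled spleens and the experiment was performed 1 time, so there is no replicate, no test was run between genotypes, and all intervals given here are 95% intervals that cover counting error only. Because the clusters were built from the same transcripts, each comparison of a cluster with its reference is a description and has no test.

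In droplet RNA-seq, a cell whose outer membrane leaks is known to lose cytosolic messenger RNA, while transcripts inside mitochondria and the nucleus tend to stay with the particle. High mitochondrial shares and low UMI totals are therefore commonly used as signs of poor RNA quality. Nuclear non-coding RNAs such as Malat1, which sits in nuclear speckles, and mitochondrially encoded messages are commonly used as marks of what stays behind. Mature conventional DCs (cDCs) are the state in which a cDC has switched on Ccr7, the receptor that guides it to T cell zones.

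Batf3, the gene targeted in the mutant, was read first as a check of the labels. Levels are given as CPM, the UMIs of a gene scaled to a fixed total of UMIs. In C9 Batf3 stood at 301 CPM (interval 258 to 348) in WT and at 17.4 CPM (9.72 to 28.7) in Batf3-/- cells. The latter rests on 15 UMIs in 15 of 528 cells. In C17 it stood at 179.9 CPM (129.6 to 243), from 42 UMIs. In C0 the levels were 180.5 CPM in WT and 1.65 CPM in Batf3-/- cells. The level of Batf3 in each library was thus on the side its label gives. Of the 993 cells, 6 carried a barcode found in both libraries, among 56 such barcodes in all.

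Most members were shallow and most had a high mitochondrial share. Under 2500 UMIs lay 842 of 902 C9 cells and 51 of 91 C17 cells, against 348 of the 23350 cells of other clusters. The median cell of C9 held 1467 UMIs in WT and 1487 in Batf3-/-, against 6648 and 7187 in C0. The median C17 cell held 2348 UMIs, against 15398.5 in C4. Median mitochondrial shares were 14.9% and 13.8% in C9, against 4.70% and 4.38% in C0, and 15% in C17 against 4.03% in C4. Of the C9 cells 696 (77.2%) were over 10% mitochondrial, as were 69 C17 cells (75.8%) and 350 of the 23350 cells of all other clusters (1.5%). At the other end, 58 C9 cells and 6 C17 cells were under 5%. The name "high-mitochondrial" therefore does not hold for each cell. The filter of at most 20% that the authors applied cuts through both distributions, since 161 C9 cells (17.8%) and 21 C17 cells lay above 18%, against 24 cells elsewhere. The lower limit of 500 genes does the same, with 222 C9 cells under 600 genes. By ribosomal protein share, 805 C9 cells (89.2%) and 84 C17 cells (92.3%) were under 10%, against 341 of the 23350 other cells, of which 9 were in C0 and 1 in C4.

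**Figure D1:**
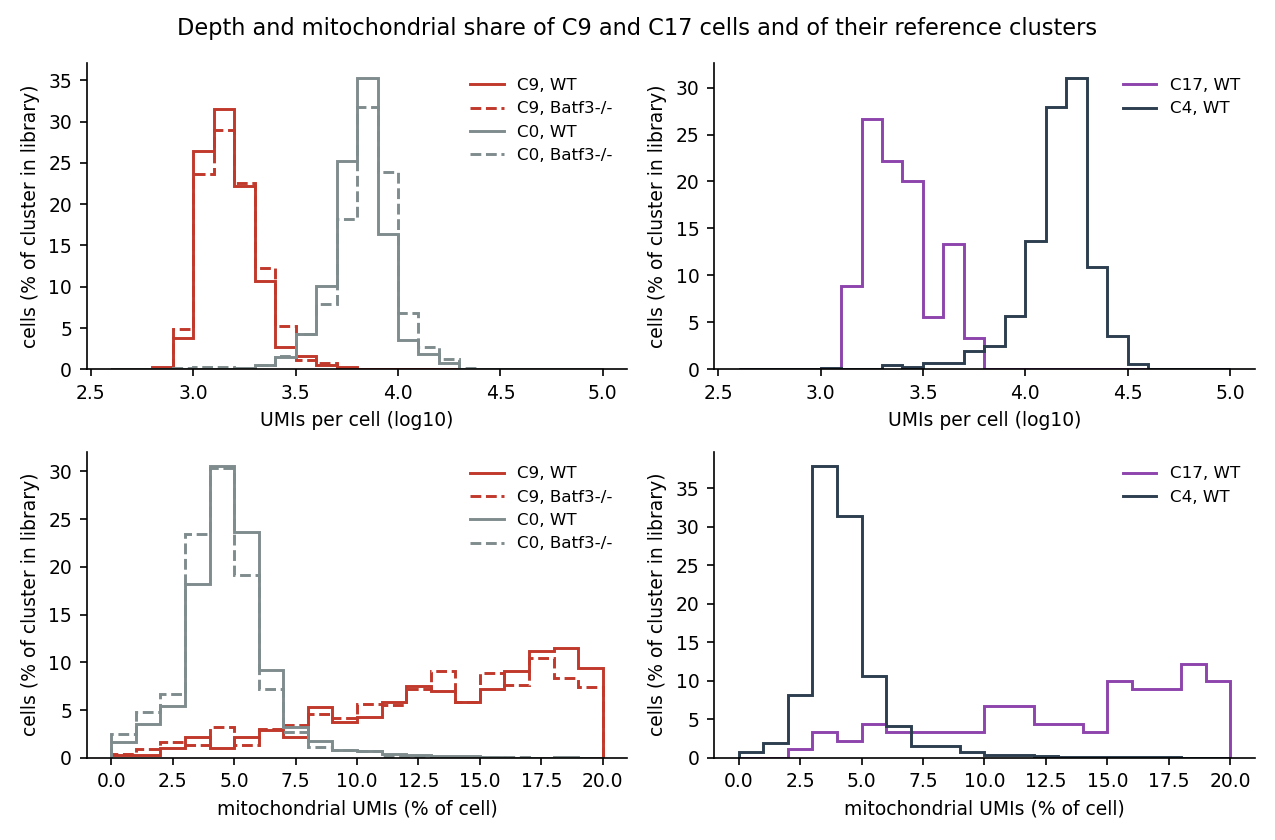
UMIs per cell (log10 scale, upper panels) and mitochondrial share of a cell's UMIs (lower panels) as percent of the cells of each cluster and library, for C9 with C0 (left) and C17 with C4 (right, WT only). C9 and C17 lie well to the left of their references in UMIs, and their mitochondrial shares run up to the 20% limit with a tail of cells under 5%.

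Counted per cell, Malat1 was above the reference cluster as a whole and mitochondrial transcripts at more than 50% of it. Ribosomal protein and most other messages were far below it. Malat1 was not above C1 or C12, which part of the cells resembled, as given below. C1 held 370 Malat1 UMIs per cell in WT and 378 in Batf3-/-, and C12 held 967 in WT. A WT C9 cell held on average 246 Malat1 UMIs against 204 in C0 (121%) and 223 mitochondrially encoded UMIs against 331 (67.3%). It held 93.9 UMIs of cytosolic ribosomal protein genes against 1716 (5.47%). All remaining genes gave 961 UMIs against 4575 (21%), and the total was 1592 against 6869 (23.2%). Batf3-/- C9 cells showed the same order, with 125% for Malat1, 65.3% for mitochondrial, 5.22% for ribosomal protein and 20.3% for the remaining genes. C17 cells held 769 Malat1 UMIs against 625 in C4 (123%), 355 mitochondrial UMIs against 648 (54.7%), 123 ribosomal protein UMIs against 3871 (3.17%) and 1177 UMIs of the remaining genes against 10320 (11.4%). Reads on the 3 annotated loci that carry ribosomal RNA sequence (Gm42418, Gm26917 and AY036118) were more numerous per cell than in the reference, at 161% and 206% in C9 and 323% in C17. As a share of the UMIs, Malat1 alone took a median of 15.1% and 15.5% of a C9 cell and 30.3% of a C17 cell, against 2.78%, 2.6% and 3.23% in the references.

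**Figure D2:**
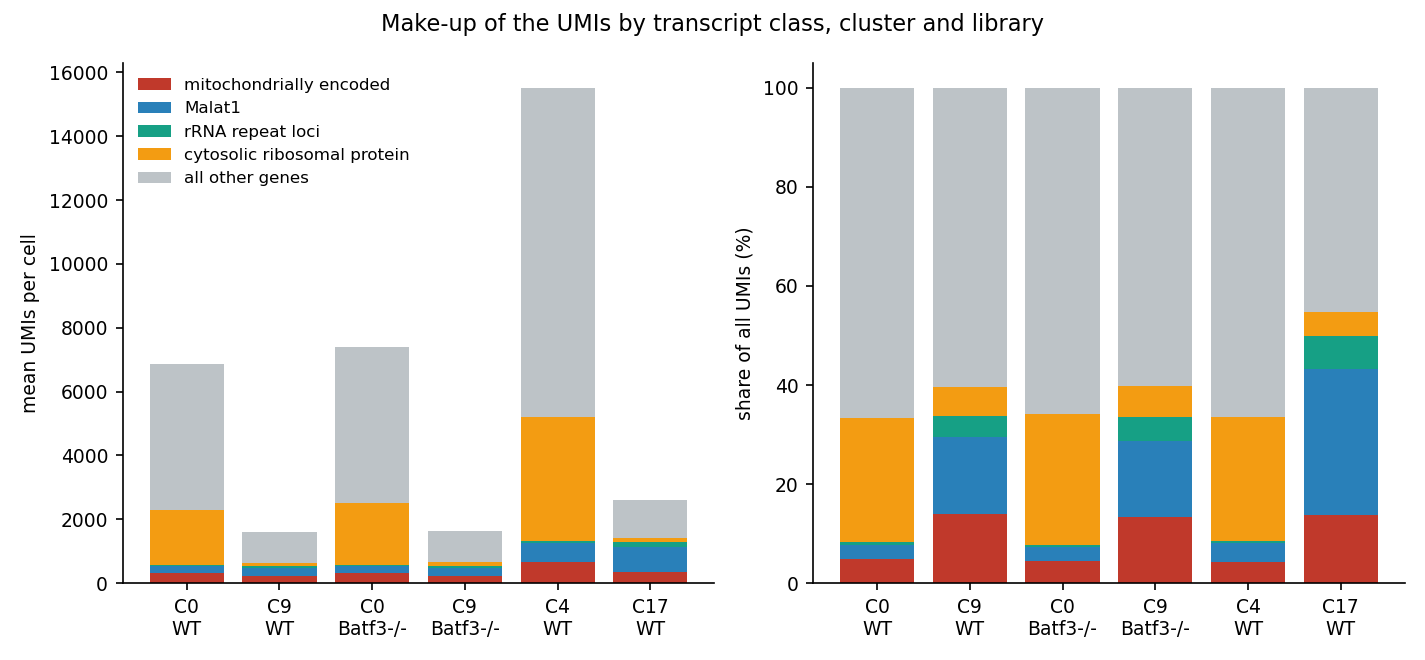
Mean UMIs per cell (left) and share of all UMIs (right) by transcript class, for each cluster and library. Malat1 UMIs per cell are slightly higher in C9 and C17 than in their references, whereas ribosomal protein UMIs fall from 1716 to 93.9 per WT cell between C0 and C9 and from 3871 to 123 between C4 and C17.

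Within C9, ribosomal protein share and depth were similar at low and high mitochondrial share. Across C9 cells with 0 to 5%, 5 to 10%, 10 to 15% and 15 to 20% mitochondrial UMIs (58, 148, 290 and 406 cells), the median ribosomal protein share was 4.70%, 4.32%, 4.14% and 4.72%. The median depth was 1357, 1348, 1483 and 1524.5 UMIs. The cells with the lowest mitochondrial share were thus as shallow and as poor in ribosomal protein messages as those with the highest. The Malat1 share was lower in the bins of higher mitochondrial share, at 19.3%, 19.5%, 16.3% and 13.2%, and in C17 at 38.8%, 33.0%, 31.9% and 28.0% over 6, 16, 23 and 46 cells. In these C17 bins the ribosomal protein share was 3.81%, 3.41%, 3.77% and 3.99%, and the median depth was 1984, 1882.5, 2482 and 2441 UMIs, higher in the upper bins. Malat1 and mitochondrial UMIs are parts of the same total, which by itself sets them against each other.

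Ratios of CPM were then taken for every gene with a mean of at least 50 CPM over the cluster and its reference. Of 2848 genes compared between C9 and C0, 605 (21.2%) were at least 2-fold higher and 711 (25.0%) at least 2-fold lower in both libraries. Only 26 WT and 39 Batf3-/- C0 cells lay in the UMI range of C9 (its 5th to 95th percentile), and they are still deeper than C9, with medians of 2123.5 and 2221 UMIs and mitochondrial shares of 7.04% and 4.64%. Against these low-UMI C0 cells 228 of 3136 genes were higher and 610 lower, and the median of all genes was -0.29 and -0.35. Against C0 as a whole the median log2 ratio was 0.09 in WT and 0.09 in Batf3-/-, with 90% of genes between -2.20 and 1.92 in WT. Per cell, the median gene was at 24.7% and 23.5% of its C0 number. Only 97 genes in WT and 107 in Batf3-/- reached the C0 number, and 654 and 711 were under 10% of it. The ratios of the libraries ran closely together over the 2848 genes (Pearson r = 0.973, Spearman rho = 0.974), which share the clustering and the pipeline. Because the filter takes the mean, a gene can enter through the side where it is high, and counts on lists are over the members that passed it. In C9 these were 5 of 13 nuclear non-coding RNAs, 66 of 77 respiratory chain genes of the nucleus, 12 of 15 lysosomal, 8 of 14 glycolytic, 17 of 18 endoplasmic reticulum, 21 of 23 immediate early, 10 of 12 heat shock, 12 of 26 apoptosis, 23 of 24 chromatin and 10 of 12 mature cDC genes, and each of the other pathway lists in full. Of the other marker lists, 5 of 13 cDC2, 3 of 13 cDC1, 5 of 5 shared cDC, 2 of 9 plasmacytoid DC, 1 of 9 monocyte and 1 of 6 NK cell genes passed, and none of the rest, so most of these are given as summed levels.

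Mitochondrially encoded genes, which specify subunits of the respiratory chain and of ATP synthase, were higher in C9 for 13 of 13, with medians of 1.49 and 1.49 against 0.09 for all genes, and of 0.86 and 1.09 against the low-UMI C0 cells. The cytochrome c oxidase subunit mt-Co3 was at 31633 CPM in WT C9 and 10510 CPM in C0, a log2 ratio of 1.59 (1.57 to 1.61). The ratio was 1.61 (1.59 to 1.63) in Batf3-/-. The lowest ratio was that of mt-Atp8 (1.21 and 1.14) and the highest that of mt-Nd6 (2.43 and 2.39), the message encoded on the opposite strand to the others. Per cell, mt-Nd6 was at 125% and 116% of C0 and the other 12 lay between 49% and 77%.

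Genes with transcripts that act in the nucleus were on the same side. Malat1 (chromosome 19, 5795690 to 5802672 in GRCm38) had log2 ratios of 2.38 (2.37 to 2.39) and 2.50 (2.49 to 2.51). Neat1, the scaffold of paraspeckles, had 1.69 and 2.09, Xist, which coats the inactive X chromosome, 1.31 and 1.41, and Tug1 1.60 and 1.25. Kcnq1ot1, an imprinted antisense transcript, had 0.30 and 0.28. Of the 5, 4 were past 2-fold. Protein-coding messages for nuclear functions lay lower in size. Of 26 splicing and nuclear speckle genes 13 were at least 2-fold higher and none lower (medians 1.05 and 1.13), led by Prpf4b (2.21 and 2.24), a kinase of splicing factors, and Son (1.61 and 1.59), a speckle scaffold. The list was not uniform, since Srsf3 and Hnrnpu stood at 0.24 and 0.36 in WT and at -0.06 and 0.22 in Batf3-/-. Of 23 chromatin regulator genes 13 were higher and none lower (medians 1.16 and 1.30), among them Tet2, a 5-methylcytosine oxidase (2.02 and 2.06), Setd2, an H3K36 methyltransferase (1.95 and 2.00), and Kmt2a, an H3K4 methyltransferase (2.17 and 1.90). Per cell these 3 were at 82% to 104% of C0. Over 29 long intergenic non-coding genes, 17 were higher and 3 lower. The ratios of these lists are against C0 as a whole. Against the low-UMI C0 cells fewer of all genes were at least 2-fold higher, as given above. Ratios also rose with transcript length over all genes, as given below. The part of length and depth in the nuclear, splicing and chromatin lists was not tested in C9 or C17. Medians of these lists against the low-UMI reference cells were taken but are not given here.

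Messages for the ribosome had the lowest median of the 17 lists in both libraries. Of 79 cytosolic ribosomal protein genes 77 were at least 2-fold lower and none higher, with medians of -2.17 and -2.16, and of -1.49 and -1.52 against the low-UMI C0 cells. Rpl10 (chromosome X, 74270812 to 74273135) stood at 425 CPM in WT C9 against 3223 CPM in C0 and at 450.5 CPM against 3493 in Batf3-/-. Its log2 ratios were -2.92 (-3.11 to -2.75) and -2.95 (-3.10 to -2.81), and per cell 3.06% and 2.85% of the C0 number were left. Rpl36 (ratio nearer 0 of the libraries -0.79) and Rpsa (-0.91) were the members not past 2-fold. Of 14 translation factors 12 were lower (medians -2.08 and -2.15), with Eef1a1, the elongation factor that brings transfer RNA to the ribosome, at -2.01 and -2.19. Pabpc1, which binds poly(A) tails, and the helicase Eif4a1 were not past 2-fold in either library (-0.75 and -0.75, -0.55 and -0.94).

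The respiratory chain was split by the genome that encodes it. Of 66 subunit genes encoded in the nucleus 63 were at least 2-fold lower and none higher (medians -1.92 and -1.97), in the cells where the mitochondrially encoded subunits were higher. Ndufa8 and Ndufa4, of complex I and cytochrome c oxidase, were lowest by the ratio nearer 0 of the libraries, at 16.8 CPM against 165 (log2 ratio -3.30, -4.36 to -2.41) and 48.7 CPM against 381 (-2.97, -3.55 to -2.44) in WT. In Batf3-/- they stood at -3.12 and -3.03, and Ndufb8, of complex I, stood at -3.10 and -2.91 in the libraries. Sdha, of complex II, was nearest to 0 at -0.43 as the smaller of its ratios. Of 17 proteasome genes 16 were lower (medians -1.62 and -1.65), and of 8 glycolytic genes 5 were, with Gapdh at -2.31 and -2.43. Among these 8, Tpi1 (0.89 and 0.33) and Hk2 (0.10 and 0.77) stood above 0. Outside the lists, the lowest ratios were those of Prdx5, a peroxiredoxin (-3.53 and -3.04, from 8 and 17 UMIs), Ifitm3, an interferon-induced membrane protein from a family of similar copies (-3.25 and -3.01, 76 and 129 UMIs), Hmox2, a haem oxygenase (-2.95 and -3.02), Clec4a2, a lectin receptor (-3.07 and -2.89), and Plac8 (-2.85 and -3.04).

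Messages for antigen presentation and the cytoskeleton of DCs were depleted to different degrees. Of 11 MHC class II presentation genes 7 were at least 2-fold lower (medians -1.53 and -1.36). The alpha chain H2-Aa was at -1.64 and -1.58, the invariant chain Cd74 at -1.62 and -1.49 and the peptide exchange subunit H2-DMa at -2.38 and -2.53. Ciita, the transactivator that switches these genes on, was on the other side of 0 at 0.69 and 0.71, and per cell at 37% and 36% of C0 against 7% and 7% for H2-Aa. Of 16 actin cytoskeleton genes 13 were lower (medians -1.59 and -1.79), including Cfl1 (-2.16 and -2.21) and Pfn1 (-1.81 and -1.86), while Lcp1 was at -0.42 and -0.49. Of the lysosomal genes 2 of 12 were lower (medians -0.20 and -0.35), a share near the 25.0% of all genes, and 7 of 11 were lower in C9 cells nearest C1 over C1 (-1.35 and -1.41). Lamp1 was at 0.08 and 0.09 and the protease Ctsh at 0.31 and 0.29, whereas the protease Ctss was at -1.34 and -1.27. Among 17 genes of the endoplasmic reticulum, 9 were lower. Sec61b was at -2.33 and -2.62 and Sec61a1, which forms the translocon channel with it, at 0.62 and 0.79.

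Lists for stress and death differed from each other in direction against C0 as a whole. In both libraries 15 of 21 immediate early genes were above 0 and 4 below, and 9 of 10 heat shock and chaperone genes were below 0. The share of all genes on each side of 0 is not given here. Of 21 immediate early genes 1 was at least 2-fold higher and none lower (medians 0.58 and 0.56), against 21.2% and 25.0% of all genes. The one was Nfkbiz (1.57 and 1.44), a regulator of NF-kappaB. In C9 cells set against the cluster they were nearest to, the immediate early medians were 0.24 and 0.40 over C0 and 0.09 and -0.27 over C1. Fos stood at 0.07 and -0.01 and Egr1 at -0.01 and -0.10. Of 10 heat shock and chaperone genes 2 were lower, near the 25.0% of all genes, both of them mitochondrial chaperonins, Hspd1 (-2.19 and -1.41) and Hspe1 (-1.17 and -1.06). Of 12 apoptosis genes 4 were higher, against 21.2% of all genes, among them Birc2 (2.79 and 2.64), Birc3 (1.90 and 1.98) and Cflar (1.85 and 1.73), and Bcl2a1b was lower (-1.49 and -1.67). Bax stood at -0.78 and -1.0. In C9 cells set against the cluster they were nearest to, the apoptosis list had 1 of 11 higher and 2 lower over C0 and 2 of 12 higher and 2 lower over C1. Of all genes in these comparisons, 522 of 2922 were higher and 542 lower over C0, and 480 of 2619 higher and 643 lower over C1.

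**Figure D3:**
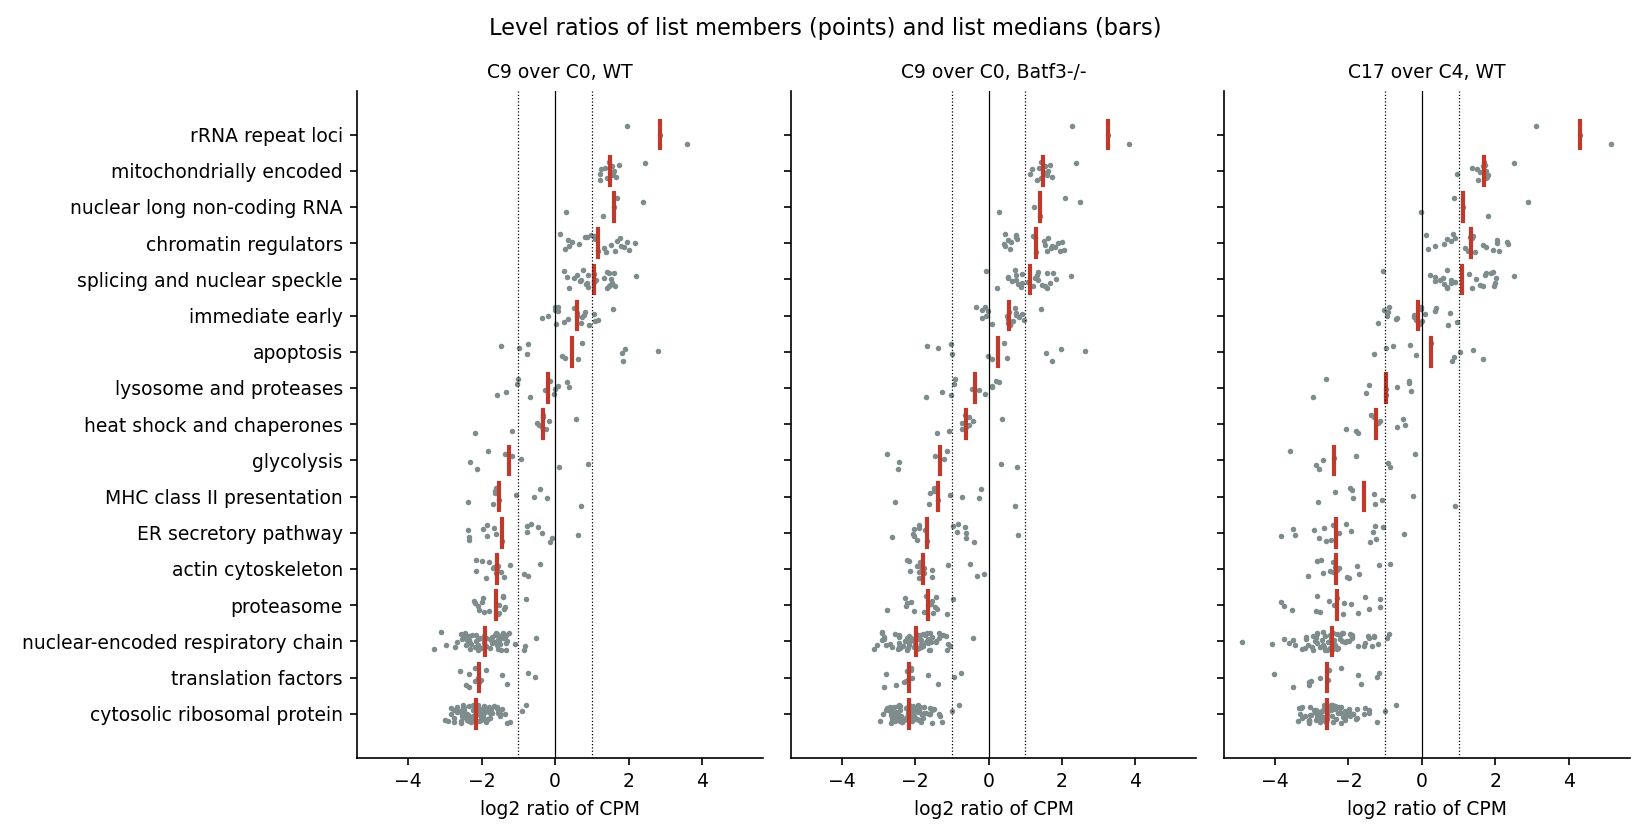
Log2 ratio of CPM of each listed gene past the level filter (points) and the median of each list (red bars) for C9 over C0 in both libraries and C17 over C4 in WT, with dotted lines at 2-fold. Mitochondrially encoded genes and the respiratory chain genes encoded in the nucleus lie on opposite sides of 0 in each of the 3 panels.

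The largest positive ratios of C9 belonged to other genes. Socs2 (chromosome 10, 95385362 to 95417180), an inhibitor of cytokine signalling, was at 296 CPM (254 to 343) in WT C9 against 3.03 CPM in C0 and at 339 CPM against 3.43 in Batf3-/-, log2 ratios of 6.61 (6.19 to 7.04) and 6.63 (6.26 to 7.01). The calcium channel subunit Cacnb3 (5.86 and 6.42), the adenosine receptor Adora2a (5.89 and 5.77), the MHC class Ib gene H2-M2 (5.59 and 5.32), the chemokine Cxcl16 (5.18 and 5.20), Slc4a8 (5.40 and 5.17), Gnb4 (4.97 and 4.78), Slco5a1 (4.93 and 4.60) and Apol7c (4.54 and 4.57) followed. Ttn, the gene for the giant muscle protein titin, stood among them at 6.36 and 5.75, from 298 and 369 UMIs. Ccr7 was at 4.53 and 4.29. In the list of 12 mature cDC genes, 10 passed the level filter and 7 were at least 2-fold higher (medians 2.46 and 2.13). A gene such as Socs2 passes through C9, where it is high, and over the 12 genes the summed level had a log2 ratio of 1.38 and 1.97. When C9 cells were matched to the cluster they resembled, none of 5 genes was higher over C0 (medians -0.53 and -0.14). Over C1 none of 12 was higher and 6 were lower (-0.87 and -1.08). That matching used the mature cDC genes themselves, which in part sets these values. With marker genes left out of the matching, the 12 genes summed to 1008 CPM in WT C0-nearest cells against 1461 in C0. In Batf3-/- they summed to 1192 CPM (1080 to 1312) against 1060, so the direction did not turn over C0 there.

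Each C9 cell was also set against the profiles of the other clusters of its own library, with mitochondrial, ribosomal and Malat1 transcripts left out, and given to the most likely one. In WT 178 of 374 cells (47.6%) were nearest C1, a cluster with high mature cDC genes, 146 (39%) were nearest C0 and 31 (8.29%) nearest C8. In Batf3-/- it was 260 of 528 (49.2%), 208 (39.4%) and 32 (6.06%). C0 cells thinned to the depths of C9 returned to C0 in 94.9% and 93.4% of cases, and C1 cells to C1 in 73.8% and 75.6%. Thinning keeps the make-up of a cell's transcripts, so these rates cover depth alone and not the altered make-up of C9 cells. The assignment depended on the genes used. From the marker lists alone, 8.02% of WT C9 cells were nearest C1, 25.1% nearest C0, 23.5% nearest C12, which also has high mature cDC genes, and 13.6% nearest C16, where thinned C1 cells returned to C1 in 65.4%. In Batf3-/- these genes put 19.3% nearest C1 and 27.8% nearest C0. The C1-nearest cells held a higher Malat1 share (medians 20.4% and 19.5%) than the C0-nearest cells (11.6% and 10.9%) and a lower ribosomal protein share (3.57% and 3.98% against 5.98% and 5.50%). The same direction held between C1 and C0, with Malat1 medians of 5.24% and 4.82% against 2.78% and 2.6%.

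Mature cDC genes were then read in cells assigned with every listed marker gene left out of the assignment, which gave 182 and 262 cells nearest C1 and 142 and 203 nearest C0. The 12 genes summed to 6813 CPM (6509 to 7127) and 6895 CPM (6642 to 7156) in the former and to 1008 (885 to 1144) and 1192 (1080 to 1312) in the latter. C1 stood at 14314 and 15091 CPM and C0 at 1461 and 1060. Ccr7 was at 591 and 568 CPM in C1-nearest cells against 29.2 and 57.2 in C0-nearest cells. Il4i1, a secreted amino acid oxidase, was at 1254 and 1223 CPM, near the 1193 and 1276 of C1. Socs2 was at 613 and 610 CPM, above the 448 and 518 of C1. Fabp5, a fatty acid binding protein, was far below C1, at 177 CPM (131 to 233) and 354 CPM (299 to 417) against 2411 and 2816. The members of the list thus stood unequally relative to C1.

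**Figure D4:**
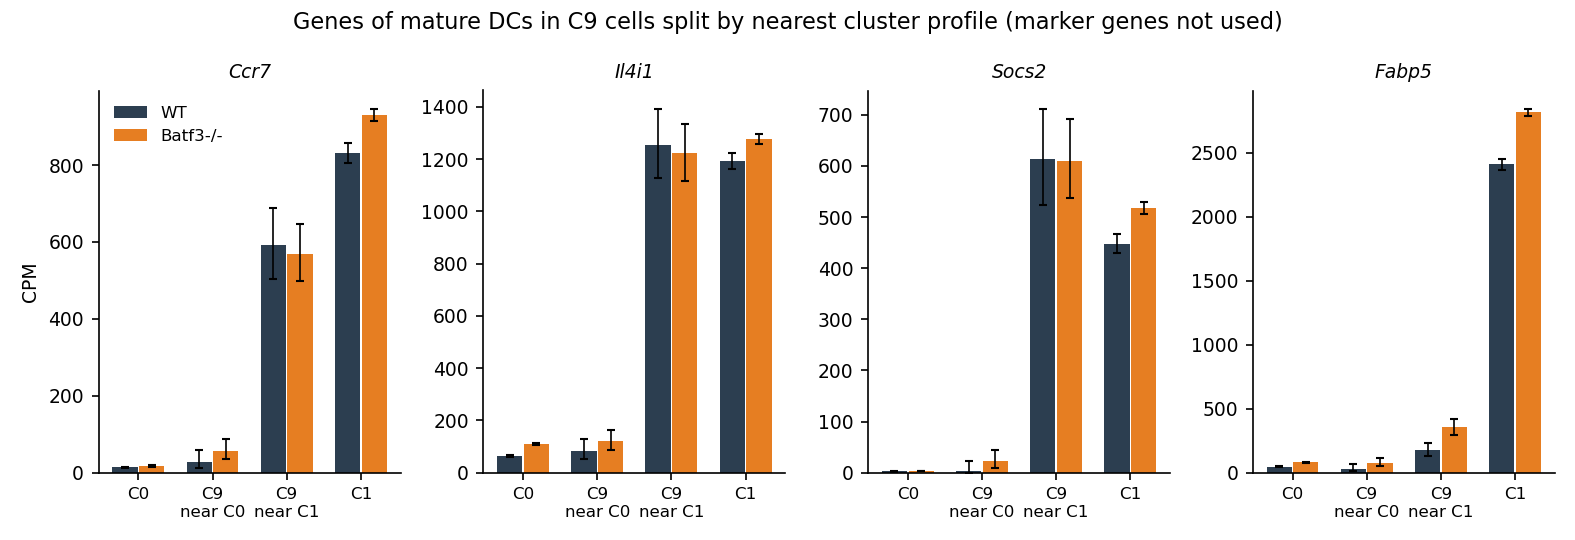
CPM of Ccr7, Il4i1, Socs2 and Fabp5 in C0, in C9 cells nearest C0, in C9 cells nearest C1 and in C1, in WT (dark) and Batf3-/- (orange), with exact Poisson 95% intervals as error bars. Cells were assigned without the marker genes, and in C1-nearest cells Il4i1 is near its C1 level while Fabp5 is far below it.

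With the cells matched to the cluster they resembled, most classes of transcripts kept and lost were similar on both sides. The lysosomal list differed, with 2 of 12 genes at least 2-fold lower over C0 (medians -0.42 and -0.45) and 7 of 11 over C1 (-1.35 and -1.41). C9 cells nearest C0 were at least 2-fold higher than C0 for 522 and lower for 542 of 2922 genes, and those nearest C1 were higher than C1 for 480 and lower for 643 of 2619. Over 2248 genes past the filter in both, the ratios had a Spearman rho of 0.915 in WT and 0.934 in Batf3-/-. Of these genes 302 were higher in both, 70.4% of the 429 and 78.4% of the 385, and 431 were lower in both, 93.5% of the 461 and 71.7% of the 601. Ribosomal protein medians were -1.73 and -1.81 against C0 and -2.40 and -2.27 against C1, and mitochondrial medians 1.57 and 1.64, and 1.55 and 1.55. Malat1 ratios were 1.91 and 1.96 in either comparison, lower than the 2.38 and 2.50 of all C9 cells over C0. Per cell these subsets held fewer Malat1 UMIs than the cluster they were nearest to. Cells nearest C0 held 27410 in 146 WT and 38420 in 208 Batf3-/- cells, against 204 and 202 per C0 cell. Cells nearest C1 held 54250 in 178 and 79860 in 260 cells, against 370 and 378 per C1 cell. Ttn stayed high on both sides (5.29 and 5.80 over C0, 5.01 and 4.50 over C1), as did Lars2 (2.95 and 3.25 in WT), the mitochondrial leucyl transfer RNA synthetase. Of the other genes with the largest ratios over C0, Socs2 (0.49 and 0.22), Cxcl16 (-0.25 and -0.36) and Apol7c (-0.24 and -0.36) were near 0 over C1. Slc4a8 (1.69 and 1.91), Slco5a1 (1.72 and 1.75) and Adora2a (1.21 and 1.12) stayed past 2-fold over C1 in both libraries. Cacnb3 (0.81 and 1.02), Gnb4 (1.10 and 0.83) and H2-M2 (0.38 and 0.66) stayed above 0.

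C17 was set against C4, the cluster with the cDC1 genes high, and the same classes of transcripts were high and low in it. Of 2351 genes 524 (22.3%) were at least 2-fold higher and 814 (34.6%) at least 2-fold lower, with a median of -0.12. Against the 41 C4 cells in the UMI range of C17, which had a median of 3643 UMIs and 8.57% mitochondrial, 326 of 2585 genes were higher and 1004 lower, with a median of -0.58. Per cell the median gene was at 15.4% of C4, 18 genes reached the C4 number and 920 were under 10% of it. Malat1 was at 296407 CPM against 40252 in C4, a log2 ratio of 2.88 (2.87 to 2.89). The loci with ribosomal RNA sequence gave 5.16 (5.05 to 5.26) for Gm26917, 4.31 (4.29 to 4.34) for Gm42418 and 3.10 (2.98 to 3.21) for AY036118. AY036118 (chromosome 17, 39847113 to 39848035) lies inside Gm42418 (39846958 to 39848788), so their UMIs may be divided between them by the counting. Lars2 was at 4.80 (4.66 to 4.94) and Gm26870, an annotated locus near the start of chromosome 9, at 6.04 (5.51 to 6.54) from 48 UMIs. Tspoap1, Mical3, Dpp7, Nlrp1b and Gbp8 completed the 10 highest, at 3.05 to 3.89 with 23 to 28 UMIs each.

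Among the 10 lowest genes of C17, 2 were not seen at all. Sec11a, a signal peptidase subunit, had 0 UMIs in 90 cells (exact upper limit 15.8 CPM) against 103 CPM in C4, at least 7.98-fold lower when 3 UMIs over the cluster are taken as the floor. Snrpd3, a core protein of the spliceosome, had 0 UMIs against 113 CPM, at least 8.80-fold lower by the same floor. The 95% interval of the log2 ratio ends at -2.70 for Sec11a and at -2.84 for Snrpd3, which allows smaller folds than the floor. Snrpg, of the same ring of core proteins, had 1 UMI and a log2 ratio of -5.14 (-10.44 to -2.66), and the complex I subunit Ndufa12 had 1 UMI and -4.88 (-10.19 to -2.40). Tbcb, Mrps16 and Etfb had 1 UMI each, Gmfg 2 and Ndufc2 3, so the depth of C17 sets wide intervals on single low genes. Btf3, a chaperone of nascent chains, rests on 15 UMIs at -4.03 (-4.86 to -3.30). Other genes of splicing were on the opposite side, with Son at 1.88, Srrm2 at 1.92 and Prpf4b at 2.52.

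Most lists of C17 had the sign they had in C9. Mitochondrially encoded genes were at least 2-fold higher for 12 of 13 (median 1.68, and 0.66 against the low-UMI C4 cells, with mt-Atp8 at 0.96). Ribosomal protein genes were lower for 78 of 79 (median -2.58, and -1.92 against the low-UMI C4 cells), respiratory chain genes of the nucleus for 65 of 67 (-2.44), proteasome genes for 17 of 17 (-2.31) and translation factors for 14 of 14 (-2.57). Endoplasmic reticulum genes were lower for 17 of 18 (-2.34) and actin genes for 15 of 16 (-2.34). Chromatin regulators were higher for 14 of 22 (1.34) and splicing genes for 13 of 26 (1.08), with Srsf3 lower (-1.06). MHC class II genes were lower for 8 of 10 (-1.59), with Ciita at 0.90 and H2-Aa at -2.35. Lysosomal genes were lower for 4 of 10 (-0.97), near the 34.6% of all genes, among them Cst3, the protease inhibitor cystatin C, at -2.95. Glycolytic genes were lower for 6 of 9 (-2.40) and heat shock genes for 7 of 10 (-1.25). Of 11 apoptosis genes 3 were higher, near the 22.3% of all genes, and 1 lower (0.24), and of 5 nuclear non-coding RNAs 3 were higher (1.12), with Xist at 1.80 and Neat1 at 0.88. None of 5 mature cDC genes was past 2-fold (0.36). Immediate early genes had a median of -0.10 with 2 of 20 lower. In C9 it was 0.58 and 0.56, but 0.24 and 0.40 for cells nearest C0 over C0 and 0.09 and -0.27 for cells nearest C1 over C1. Over 2075 genes past the filter in both, the WT ratios of C9 and C17 had r = 0.899 and rho = 0.909, from clusters and references that share a library but no cells. Among 2077 genes, 302 were higher in both, 75.9% of the 398 of C9 and 67.3% of the 449 of C17, and 572 were lower in both, 93.9% of 609 and 75.6% of 757.

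The cDC1 genes were near their C4 level in C17 when summed, though not each to the same degree. The 13 cDC1 genes summed to 6501 CPM (6178 to 6836) against 7220 CPM in C4 and 506 in C0. Their median log2 ratio was -0.25, with 3 at least 2-fold higher, a share near the 22.3% of all genes, and 1 lower. Clec9a, the receptor for dead cell actin, was at 1.18, the integrin Itgae at 1.35 and Tlr11 at 1.02. Irf8, the transcription factor on which cDC1 depend, was at -0.10, the chemokine receptor Xcr1 at -0.47, Cd8a at -0.88 and Cd24a at -1.67 from 13 UMIs. Of the 90 WT cells 64 (71.1%) were nearest C4 and 21 (23.3%) nearest C12, a cluster of 394 WT and 31 Batf3-/- cells with high mature cDC genes. Thinned C4 and C12 cells returned to their own cluster in 96.7% and 88.9% of cases. With the marker genes left out of the assignment, mature cDC genes summed to 1714 CPM in the 23 cells nearest C12 and to 383 CPM in the 46 nearest C4, against 12937 CPM in C12 and 596 in C4. The cDC1 genes summed to 3760 CPM (3262 to 4313) in the cells nearest C12 and 7364 CPM in those nearest C4, against 1280 CPM in C12. On both lists the cells nearest C12 thus lay between C12 and C4.

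The feature most tied to the ratio of a gene, among those examined and not used by the clustering, was the length of its annotated transcript (GENCODE M21, 1 transcript per gene). Mitochondrially encoded genes, and genes with no UMI in the cluster, were left out of this comparison. Over the 2830 remaining genes of C9 with a record, Spearman rho was 0.623 in WT and 0.626 in Batf3-/-, and over 2332 genes of C17 it was 0.643. Genes are not independent replicates, so no p is given. From the shortest to the longest quartile of genes, the medians were -1.51, -0.25, 0.39 and 0.91 in WT C9 and -1.97, -0.52, 0.35 and 0.89 in C17. Per cell this meant 8.14%, 19.5%, 30.4% and 43.6% of the C0 number. In the shortest decile (345 to 975 nucleotides) 229 of 283 genes were at least 2-fold lower and 5 higher, and in the longest decile 1 was lower and 140 higher. The shortest decile of C17 had 208 of 234 lower and the longest 135 of 234 higher. Without the ribosomal protein and respiratory chain lists, whose genes are short, rho was 0.582, 0.585 and 0.603. Within quartiles of level it ran from 0.543 to 0.698. Length of the gene on the chromosome (0.472, 0.476 and 0.52) and exon number (0.44, 0.456 and 0.548) went the same way. Within quartiles of transcript length the exon rho was between 0.0808 and 0.216 in WT C9 and between 0.101 and 0.239 in Batf3-/- C9. In C17 more of it remained, between 0.158 and 0.382. GC content had -0.148, -0.132 and -0.0832, but within quartiles of length it was above 0, at 0.0153 to 0.167 in C9 and 0.098 to 0.24 in C17. The longest run of A in the transcript had 0.354, 0.35 and 0.312, and between -0.199 and 0.174 within quartiles of length. Mitochondrially encoded messages are short and were high, so they do not follow the trend.

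**Figure D5:**
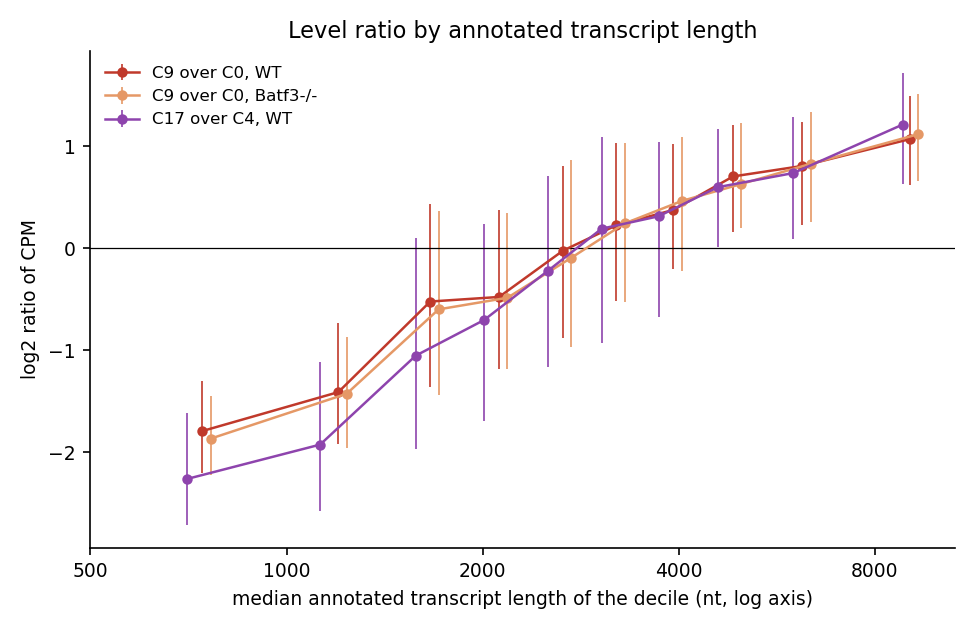
Median log2 ratio of CPM (points) with the lower and upper quartile (lines) for deciles of genes ordered by annotated transcript length (nucleotides, log axis), for C9 over C0 in both libraries and C17 over C4 in WT. Mitochondrially encoded genes are left out. Points of the 3 series are set slightly apart, and the medians run from -1.79 in the shortest to 1.07 in the longest decile in WT C9.

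Depth also sets how many cells show a gene, so cells were thinned to 1000 UMIs, a step that dropped 15 C9 cells of the WT library, 27 of the Batf3-/- library and none of C17. At that depth a C9 cell showed a median of 525 and 530 genes against 564 and 564 in C0, and a C17 cell 422 against 516 in C4. Rpl10 was seen in 32.6% of WT C9 cells (27.8% to 37.7%) against 94.5% in C0, where the unthinned shares were 44.1% and 99.8%. Neat1 was seen in 71.3% (66.3% to 75.9%) against 34.4%, and unthinned in 80.2% and 81.3%, so the shares differed at equal depth and not before thinning. The histone methyltransferase Kmt2a was seen in 24.8% against 6.93%, and unthinned in 34.8% and 35.7%. Itgax, which encodes CD11c, was seen in 27.9% (23.3% to 32.8%) of WT C9 cells against 25.1%, which is within the interval, and in 22.6% (19.0% to 26.5%) of Batf3-/- C9 cells against 19.0%. Cd74 was seen in 94.4% against 100%. Of cells in C9 20.9% showed Ccr7 against 1.42% in C0. Cd3e of T cells, as a gene these cells should lack, was seen in 0.279% of C9 cells (0.00705% to 1.54%) and in 0 of 3175 C0 cells (upper limit 0.116%). In C17 Xcr1 was seen in 23.3% (15.1% to 33.4%) against 40.0% in C4, Clec9a in 47.8% (37.1% to 58.6%) against 27.6%, and Naaa, a lysosomal amidase of cDC1, in 28.9% against 62.3%. The unthinned shares were 46.7% and 97.1%, 73.3% and 96.1%, and 55.6% and 98.6%.

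The adt counts played no part in the clustering. Summed over the 11 antibodies, the median was 482.5 in WT C9 cells against 508 in C0 (95%) and 450 against 465 (96.8%) in Batf3-/-. In C17 it was 559 against 694 (80.5%). These sums hold a large background, since C13, a cluster of NK and T cells, still had a median of 393 in WT and 393 in Batf3-/-, and they do not measure how much bound antibody was kept. The rows of the tag tables carry no names, so they are given by number, with the gene among the 11 tested that ran with them most closely over cells. Row 5, whose best gene was Itgax in both libraries, was low in both clusters, at 61 against 89 in WT C9 (68.5%), 46 against 62 in Batf3-/- (74.2%) and 60.5 against 104 in C17 (58.2%), where C13 stood at 34 and 36.5. Its Spearman rho with Itgax was weak (0.203 in WT and 0.158 in Batf3-/-). The next genes were close, Kit in WT (0.193) and Sirpa in Batf3-/- (0.134), and in WT row 9 ran more closely with Itgax (0.222). Row 8, the best row for Xcr1, Clec9a and Cd24a, was at 61.5 in C17 against 131 in C4 (46.9%), below the 70 of C12 and above the 34 of C0. Row 2, which ran with Cd8a, was at 98.5 in C17 against 122 in C4 and 41 in C0. In C9 rows 2 and 7 were above C0 (115% and 114% in WT, 117% and 113% in Batf3-/-) and row 4 below it (84.3% and 77.8%). By median, C17 cells thus carried the tags that ran with cDC1 genes above the level of C0, and at lower counts than C4.

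C9 made up 3.06% of the WT library (2.76% to 3.38%) and 4.36% of the Batf3-/- library (4.0% to 4.74%). With C18, C17, C12, C6 and C4, assigned to cDC1 by the authors, taken out of both denominators, which left 8665 and 11327 cells, the shares were 4.32% (3.90% to 4.77%) and 4.66% (4.28% to 5.07%), with overlapping intervals. C17 made up 0.736% and 0.00825%. Sorting, handling and sequencing of each pool cannot be told apart from the genotype.

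Within C9 few genes differed by 2-fold between the genotypes. Of 2818 genes 8 (0.284%) were at least 2-fold higher and 9 (0.319%) at least 2-fold lower in Batf3-/-, with 90% of log2 ratios between -0.54 and 0.55. The counting interval left out 0 for 402 of the 2818. In the cells nearest C0 54 genes were higher and 46 lower by 2-fold, and in those nearest C1 54 and 38, with fewer UMIs per gene. Batf3 itself was lowest at -4.11 (-4.98 to -3.35), followed by Nras (-1.16, -1.90 to -0.44), Sinhcaf (-1.15), Arl5a (-1.09) and Nup210 (-1.09). Pdgfb, a growth factor chain (1.45, 0.72 to 2.23), Zcrb1 (1.32), Rras2 (1.27), Rnf150 (1.22) and Fabp5 (1.13, 0.70 to 1.58) were highest, from 18 to 59 WT UMIs. Fabp5 was higher in Batf3-/- in C0 as well (0.82) and less so in C1 (0.22). Of the 15 Batf3 UMIs of Batf3-/- C9 cells, 13 were in the cells assigned to C1 without marker genes, at 32.0 CPM, against the 11.6 CPM of C1, and 1 was in those assigned to C0. Cst3, chosen after its values were seen, was lower in Batf3-/- C9 cells (571 against 988 CPM, -0.79, -0.97 to -0.62) while it was higher in Batf3-/- C0 cells (0.22). With 1 library each, such differences may be between the libraries.

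Transcripts of other cell types were scarce. Of the 902 C9 cells the deposited short SingleR labels call 894 DCs and 8 monocytes, and the long labels name macrophage types for 5, 3 and 3 cells and 4 monocyte types for 1 cell each. The long DC labels differed from those of the references. DC.8-4-11B- was given to 19.4% of C9 against 96.4% of C0, and DC.8-4-11B+ to 39.9% of C9 and 53.4% of C1. In WT, DC.8+ was given to 12.2% of C17 against 83.4% of C4, and a DC label without a type to 77.8% of C17. The 4 T cell genes found in the files summed to 10.1 and 3.47 CPM in C9 against 2.15 and 2.47 in C0, from 6 and 3 UMIs. The 4 neutrophil genes summed to 21.8 and 16.2 CPM against 3.62 and 4.57, and the 6 erythroid and platelet genes to 47.0 and 38.2 CPM against 14.2 and 14.4. The 6 NK cell genes were at 116 and 115 CPM against 385 and 338. Sums for plasmacytoid DCs (212 and 211 CPM against 209 and 209) and for monocytes and macrophages (144 and 174 CPM against 133 and 168) were near C0. The 5 B and plasma cell genes found were at 60.5 and 55.6 CPM against 52.9 and 68.7, and the 8 cell cycle genes at 169.6 and 185 CPM against 104 and 105. In C17 the T cell, NK cell, neutrophil, erythroid, plasmacytoid DC and monocyte sums were 4.28, 21.4, 0, 25.7, 98.5 and 60.0 CPM, against 2.25, 33.2, 2.75, 175, 209 and 395 in C4. Their part in the ratios above was not tested. The 13 cDC1 genes summed to 739 and 489 CPM in C9 against 506 and 385 in C0. The 13 cDC2 genes summed to 816 and 805 CPM in C9 against 1287 and 1200 in C0, and Sirpa was at 213 and 316 CPM against 207 and 247. The 5 genes shared by all cDCs had medians of 0.83 and 0.77 in C9 and 0.90 in C17. In C9 1 of them was at least 2-fold higher, near the 21.2% of all genes, and in C17 2 were, against 22.3% of all genes.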

How the data were processed

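The deposited raw matrices give whole-number counts: UMIs of each gene, and adt UMIs of each antibody, in every cell. The authors demultiplexed with bcl2fastq 2.2.0, counted with Cell Ranger against GRCm38 (mm10), aggregated the libraries to even depth, kept genes seen in at least 3 cells and cells with 500 to 5000 genes, at most 20% mitochondrial and 50% ribosomal UMIs, and clustered in Seurat 3.0.5 with 16 components at a resolution of 0.5. The authors deposited mitochondrial and ribosomal content per cell as a fraction, and cell cycle values as a score. The normalized tables were not used. Totals recomputed from the counts equalled the deposited ones in 24343 of 24343 cells. No doublet caller was run, and cells were taken as the authors kept them.

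Cells were grouped by library and deposited cluster. Levels are summed UMIs of the cells over all their UMIs, scaled to a fixed total (CPM), with exact Poisson intervals. For log2 ratios the interval treats the summed UMIs as a binomial draw between the groups, and shares of cells carry a Clopper-Pearson interval. All are at 95% and cover counting error only. UMIs were taken as counted, and reads of genes with near-identical copies or overlapping loci could be divided by the counting. Genes needed a mean of at least 50 CPM, and genotype ratios at least 20 UMIs. A gene with no UMI was set against a floor of 3 UMIs over the cluster. For shares of cells, each was thinned without replacement to 1000 UMIs (alternatives 700 and 1500). The nearest profile was the cluster with the highest multinomial likelihood (pseudocount 0.5, clusters of at least 20 cells). With 1 library per genotype no test was made. Named genes are, per comparison, the 10 highest and 10 lowest ratios and the 5 with the most UMIs, the 5 highest and 5 lowest genotype ratios within C9, and genes of the fixed lists. Cst3 between genotypes and the leading genes of the matched comparisons were chosen after their values were seen.

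The 17 gene lists, the 12 marker lists and the members were chosen with earlier results of these data known. Of 17751 symbols, 17650 matched 1 GENCODE M21 gene. Matched subsets, the assignment without marker genes and the removal of shared barcodes were added after the data had been seen. Intervals and ratios were tested on simulated data. Python 3.11.15, numpy 2.4.6, scipy 1.17.1, pandas 2.3.3 and matplotlib 3.10.9 were used.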

Additional observations from a re-analysis of the deposited data

How the results depend on the processing

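With 1 library per genotype and 90 cells in C17, counting error alone is covered, and rare genes of C17 rest on few UMIs. Counts of genes moved with the level filter, as did the number of genes compared. At 20 CPM, 1078 of 5682 genes were at least 2-fold higher and 1036 lower in C9 over C0, and 1108 of 4986 higher and 1414 lower in C17 over C4. At 200 CPM, 144 of 598 were higher and 238 lower in C9, and 89 of 468 and 248 in C17. Against the reference cells in the cluster's UMI range (26 and 39 C0 cells and 41 C4 cells, all groups deeper than the cluster), 228 genes were higher in C9 and 326 in C17. There the mitochondrial medians were 0.86 and 1.09 in C9 and 0.66 in C17, the ribosomal protein medians -1.49, -1.52 and -1.92, and the rho with length 0.439, 0.468 and 0.464, the lowest of all alternatives. With cells under 15% mitochondrial the mitochondrial medians were 1.06 and 1.09 in C9. The mature cDC median turned negative with a mixture of clusters as reference (-0.61 in WT and -0.81 in Batf3-/-), in cells nearest C0 over C0 (-0.53 and -0.14) and in cells nearest C1 over C1 (-0.87 and -1.08). Each of these alternatives rests on an assignment that used the mature cDC genes. Thinned to 700 and 1500 UMIs, Rpl10 was seen in 23.8% and 46.8% of WT and 19.7% and 39.3% of Batf3-/- C9 cells, Itgax in 19.8% and 39.8% and Ciita in 39% and 63.2% of WT C9 cells, and Xcr1 at 1500 in 34.1% of C17. From marker genes alone, 25.1% and 8.02% of WT C9 cells were nearest C0 and C1, 27.8% and 19.3% of Batf3-/- cells, and 86.7% of C17 nearest C4. From 1000 variable genes 34.7% of Batf3-/- C9 cells were nearest C0. Without marker genes, chosen after seeing the data, 51.1% of C17 were nearest C4. Without the cDC1 clusters the WT share of C9 was 4.32%. For Batf3-/- over WT within C9, cells nearest C0 gave 54 genes higher and 46 lower, and cells nearest C1, an alternative added after seeing the data, 54 and 38, with fewer cells and UMIs per gene. Of the remaining alternatives, 55 main values and 415 others stayed within their limits and 83 others moved. No paired analysis was possible because each genotype has 1 library and no result comes from a test.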
